A study of Homo sapiens with 20 samples.

Results

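The clustered protocadherin genes are 53 genes of the alpha, beta and gamma clusters on the long arm of human chromosome 5, and they are described here through the chromatin loops that touch them in 4 glioblastoma (GBM) cell lines. A loop is an anchor pair, that is, a pair of chromosome pieces of about 5 kb with a value for how strongly they met in Hi-C. The members are the listed anchor pairs with either anchor inside chr5:140160000-140895000 (hg19). This rule uses position and no measured strength, but it was chosen with earlier results of these data known. They numbered 382 of the 300000 listed anchor pairs in H4 and 245 in H4 88-1, and 367 in 42MGBA and 337 in 42MGBA 53-1, and 566 of 572000 distinct anchor pairs over the lines together. Of the 566, 135 were listed in all 4 lines, 102 in 3, 156 in 2 and 173 in 1. By their hg19 positions in GENCODE release 44, the alpha cluster (15 genes) spans chr5:140165721-140391932, the beta cluster (16 genes) chr5:140430959-140628933 and the gamma cluster (22 genes) chr5:140710081-140892544, all on the plus strand.

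Clustered protocadherins are cell surface proteins of the cadherin superfamily that bind the same isoform on a neighboring cell, and neurons use the combination they express to tell self from nonself. In the alpha and gamma clusters each gene is a variable first exon with its own promoter, spliced to constant exons that the genes of a cluster share, whereas each beta gene is a single exon. A promoter is chosen when it is brought to a distant enhancer, by cohesin, the ring complex of which STAG1 or STAG2 is a subunit, and by CTCF, the DNA-binding protein at which cohesin stops. Cohesin loops mostly join CTCF sites that face each other, and a conserved promoter element with the letters CGCT lies before most of these genes. The C-type genes at the ends of the clusters (PCDHAC1, PCDHAC2, PCDHGC3, PCDHGC4 and PCDHGC5) are regulated differently from the others, being expressed in most neurons rather than chosen at random. These facts are background and were not measured here.

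The parental lines, H4 and 42MGBA, come from human GBM and carry their own truncating mutation of STAG2. Their derivatives, H4 88-1 from H4 and 42MGBA 53-1 from 42MGBA, had that mutation corrected by gene editing. Each derivative is 1 named line, so that correction of STAG2 cannot be told apart from other differences between a derivative and its parent, and the labels of the Hi-C samples name no drug treatment. Hi-C was done on 2 replicates of each line, and the authors pooled them into 1 list of the 300000 strongest anchor pairs per line, with a signal called the loop strength and no read counts. There is therefore no spread between replicates, no counting error and no test behind any difference below, and the read depth behind a value is unknown. An anchor pair that is not listed had a strength below the lowest of the list, which was 4.14 for H4 and 4.44 for its derivative, and 4.49 for 42MGBA and 4.28 for its derivative. Neighboring anchor pairs may not be independent, since the authors' enhancement step can shape neighboring values, which was not tested.

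The listed anchor pairs met at a pair of places. The first lies between PCDHAC2 and PCDHB1, and its most connected anchor, chr5:140418128-140422922, overlaps an exon of the gene ENSG00000288892 and no protein-coding gene. The second lies inside DIAPH1, the gene of a formin that assembles actin filaments, and its most connected anchor, chr5:140937229-140941998, overlaps an exon of DIAPH1 and of its antisense RNA DIAPH1-AS1. Each of these anchors and its neighbor on either side are called a hub here, the intergenic hub (chr5:140413638-140427776) and the DIAPH1 hub (chr5:140932447-140946764), and both were picked after the lists had been seen. DIAPH1 is read from the minus strand, and its start lies outside the hub at 140998622.

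The hubs are shown by the letters of the CTCF core, that is, CC, AG and GGC with 3 and 2 free letters between them, searched on both strands. They occurred 5 times in the 6 hub anchors, at the following places, written 5′ to 3′ on the strand of the match in hg19 with the 12 core letters in capitals:
Intergenic hub, chr5:140419938-140419969, minus strand: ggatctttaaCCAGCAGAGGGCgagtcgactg
Intergenic hub, chr5:140420947-140420978, minus strand: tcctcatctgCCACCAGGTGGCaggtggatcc
Intergenic hub, chr5:140424217-140424248, minus strand: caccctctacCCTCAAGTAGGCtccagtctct
DIAPH1 hub, chr5:140936399-140936430, plus strand: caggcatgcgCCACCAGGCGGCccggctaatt
DIAPH1 hub, chr5:140943952-140943983, minus strand: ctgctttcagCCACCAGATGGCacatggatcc
All 3 matches of the intergenic hub were on the minus strand, opposite to the protocadherin genes, while the DIAPH1 hub had 1 match on each strand. Of the 8480 anchors listed on chromosome 5, 31.4% hold at least 1 match, so that a match in an anchor of this length is common. A match of letters is a description and was not tested as a binding site.

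The promoters are shown for 8 genes whose pairs with the hubs carry the comparisons below and whose upstream stretch overlaps no annotated exon. Each line gives the 100 bases before the gene start in hg19, with CGCT on either strand in capitals (AGCG is CGCT read on the other strand):
PCDHA4, chr5:140186522-140186621, plus strand: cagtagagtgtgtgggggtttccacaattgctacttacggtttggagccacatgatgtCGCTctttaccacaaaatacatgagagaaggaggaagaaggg
PCDHA12, chr5:140254787-140254886, plus strand: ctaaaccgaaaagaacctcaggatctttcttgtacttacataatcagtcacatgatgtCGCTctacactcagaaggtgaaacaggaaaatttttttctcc
PCDHB12, chr5:140588169-140588268, plus strand: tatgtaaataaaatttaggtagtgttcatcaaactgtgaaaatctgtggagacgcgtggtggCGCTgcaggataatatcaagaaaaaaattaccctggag
PCDHB13, chr5:140593391-140593490, plus strand: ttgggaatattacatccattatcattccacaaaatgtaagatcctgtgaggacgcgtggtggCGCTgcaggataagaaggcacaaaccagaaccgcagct
PCDHGA2, chr5:140718227-140718326, plus strand: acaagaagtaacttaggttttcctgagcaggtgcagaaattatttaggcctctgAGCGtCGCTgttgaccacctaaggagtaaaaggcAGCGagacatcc
PCDHGA4, chr5:140734488-140734587, plus strand: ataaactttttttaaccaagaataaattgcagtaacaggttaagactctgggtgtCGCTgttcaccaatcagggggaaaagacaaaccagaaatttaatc
PCDHGB2, chr5:140739461-140739560, plus strand: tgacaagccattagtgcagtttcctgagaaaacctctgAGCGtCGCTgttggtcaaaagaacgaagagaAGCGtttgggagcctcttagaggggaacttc
PCDHGA10, chr5:140792454-140792553, plus strand: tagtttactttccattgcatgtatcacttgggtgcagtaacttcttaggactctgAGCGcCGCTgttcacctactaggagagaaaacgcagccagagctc
In windows from 250 bases before to 50 bases after the gene start, CGCT on either strand occurred in 51 of the 53 genes, all but PCDHA11 and PCDHGC5, beside 76.9% of the 20149 protein-coding genes of the annotation. Longer shared letters around it were picked after seeing the windows. GATGTCGCT stood before the start of 10 of the 15 alpha genes and of 0.0893% of all genes, GGTGGCGCT of 13 of the 16 beta genes and 0.328% of all genes, and GCGCCGCTG of 9 of the 22 gamma genes and 0.501% of all genes. The CTCF core letters were in the window of 1 member, PCDHB9, beside 12.0% of all genes. The letters had to match exactly, and the stretch before PCDHB10, which differs from the core by 1 letter, was not counted. These shares therefore do not count CTCF sites, and binding was not tested. Of the genes that led their cluster in some line, PCDHA4, PCDHB12, PCDHB13 and PCDHGA10 had the shared letters of their cluster, and PCDHGA2 and PCDHGB2 had CGCT in other surroundings. PCDHA11 had no CGCT in the window at its annotated start. The 100 bases before that start overlap an exon of PCDHA10, and whether the window holds the PCDHA11 promoter was not tested.

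The alpha cluster had a different partner from the beta and gamma clusters. In all 4 lines alpha genes were joined to the intergenic hub or its surroundings and beta and gamma genes to DIAPH1, and no listed pair joined an alpha anchor with a gamma anchor, 2 beta anchors or 2 gamma anchors. All 406 pairs that left the region did so to the right, and their outer anchors all lay within DIAPH1. Either hub held an anchor of 52.4% of the listed pairs in H4 and 60.8% in H4 88-1, and 56.9% in 42MGBA and 62.0% in 42MGBA 53-1.

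**Figure D1:**
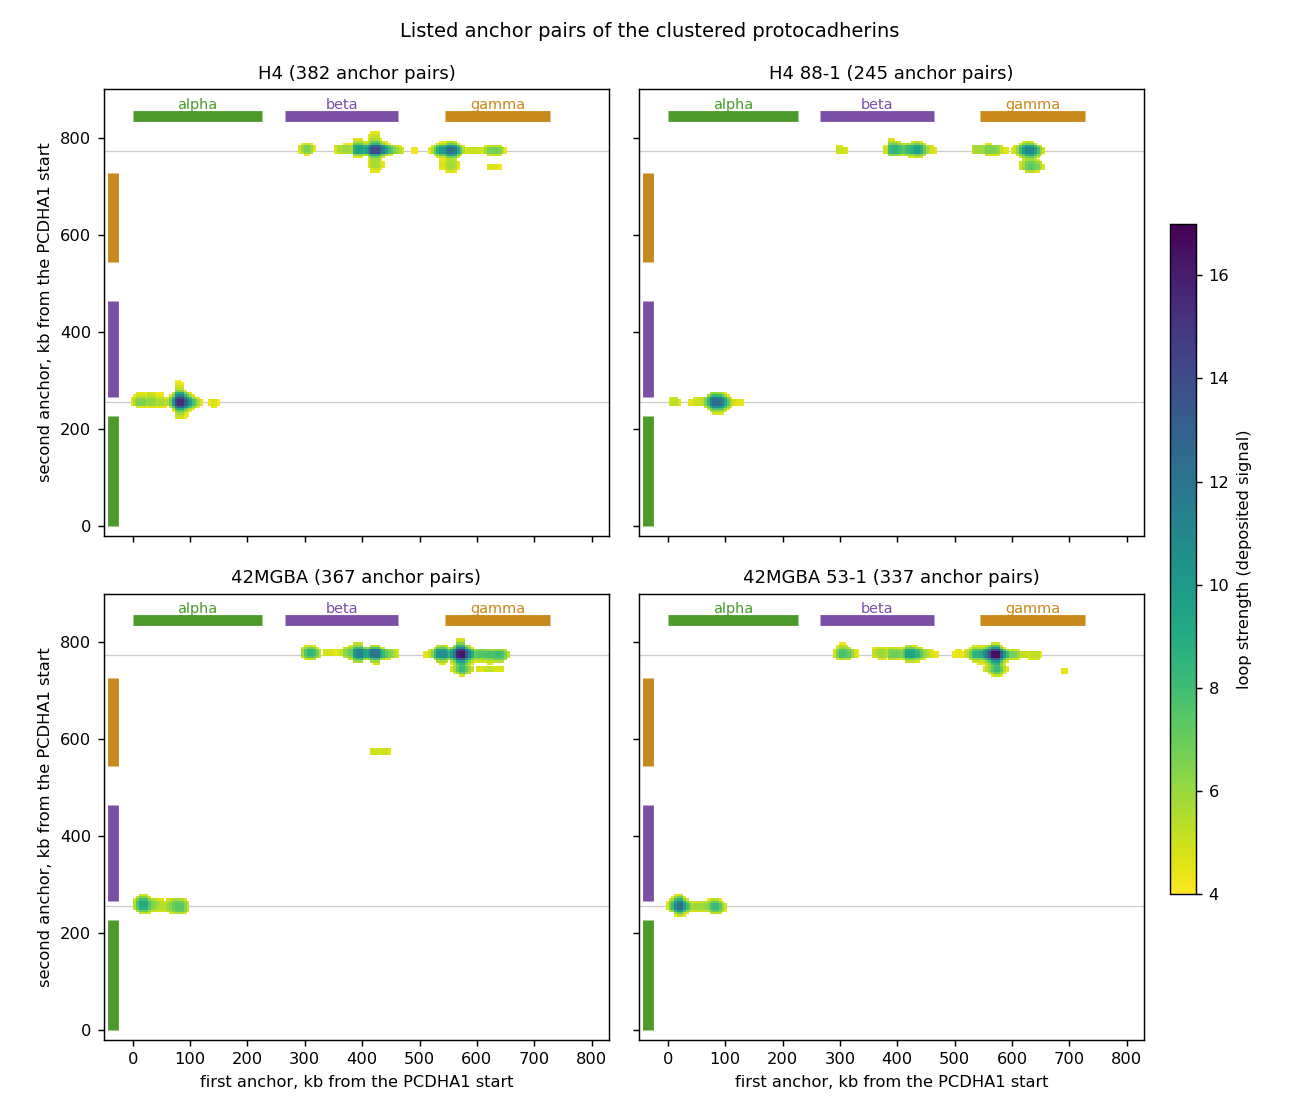
Listed anchor pairs of the clustered protocadherins in each cell line. Each square is 1 anchor pair, placed by the distance of its first (x axis) and second anchor (y axis) from the PCDHA1 start in kb and colored by loop strength, with the clusters drawn as bars and the hub centers as gray lines. The pairs lie in rows at the 2 hubs, and their strongest columns differ between H4 (382 pairs), H4 88-1 (245), 42MGBA (367) and 42MGBA 53-1 (337).

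By class, H4 listed 94 pairs between the alpha cluster and the stretch between clusters, 138 between beta and DIAPH1 and 83 between gamma and DIAPH1. The same classes had 60, 73 and 96 pairs in H4 88-1, 64, 107 and 147 in 42MGBA, and 71, 107 and 118 in 42MGBA 53-1. H4 thus had the most beta pairs of the 4 lines and 42MGBA the most gamma pairs. Pairs between the alpha and beta clusters numbered 41 in H4 and 12 in H4 88-1, and 22 in 42MGBA and 16 in 42MGBA 53-1, and the strongest of each line ended at the anchor that holds the start of PCDHB1 and adjoins the intergenic hub. Within a cluster only 3 pairs were listed, all in H4, and the strongest joined PCDHA11 with the right end of the alpha cluster at 4.82. The weakest had 4.29, and an equal strength would not be listed in H4 88-1 or 42MGBA, whose lowest listed strengths were 4.44 and 4.49. Between beta and gamma only 5 pairs were listed, all in 42MGBA, and the strongest joined the starts of PCDHB14 and PCDHGB2 at 5.03.

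A gene had a listed pair when an anchor lay within 3 kb of its start. This held for 47 of the 53 genes in H4 and 42 in H4 88-1, and 47 in 42MGBA and 47 in 42MGBA 53-1. The start of 38 genes was joined to the center of its hub in all 4 lines and that of 7 genes in 1 to 3 lines. The other 8 genes had no such pair in any line, and 4 of them were C-type genes. PCDHAC2, PCDHGC4 and PCDHGC5 had no listed pair of any kind in any line, PCDHGC3 had 1 in 42MGBA 53-1, and PCDHAC1 had 3, all in H4, with 4.76 to the hub. Among the other genes, PCDHB4 and PCDHB5 had the fewest, with 1 pair each in 42MGBA and none elsewhere, and PCDHB1, the leftmost beta gene, was joined only to the alpha side. The starts of PCDHA1, PCDHAC2, PCDHB5, PCDHGC4 and PCDHGC5 lay in no listed anchor. PCDHGB4 shares its start anchor with PCDHGA8, and PCDHGB7 with PCDHGA11, so that these cannot be told apart.

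**Figure D2:**
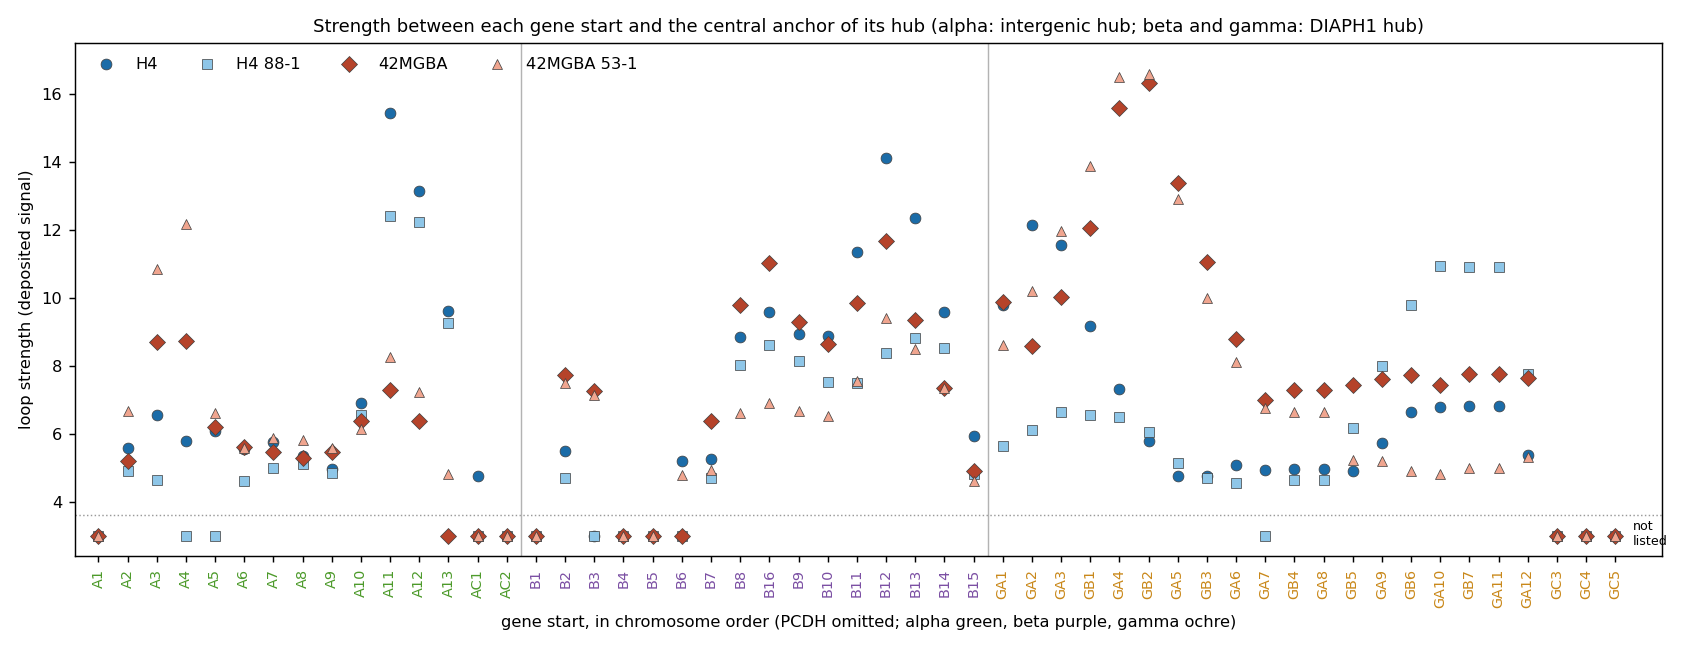
Loop strength between the anchor at each gene start and the center of its hub, the intergenic hub for alpha genes and the DIAPH1 hub for beta and gamma genes. The x axis gives the 53 genes in chromosome order, the y axis the deposited signal, each marker is 1 pooled list, and markers below the dotted line were not listed. The highest alpha gene is PCDHA11 in the H4 lines (15.4 and 12.4) and PCDHA4 in the 42MGBA lines (8.72 and 12.2), and the C-type genes are not listed apart from PCDHAC1 in H4.

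Among alpha genes, paired with the intergenic hub, the lines of the H4 system peaked at PCDHA11. Its start anchor, chr5:140246830-140251514, overlaps exons of PCDHA10 and PCDHA11, with a value to the hub center of 15.4 in H4 and 12.4 in H4 88-1, and 7.29 in 42MGBA and 8.24 in 42MGBA 53-1. PCDHA12, next to the right, had 13.1, 12.2, 6.36 and 7.22 in the same order. Both genes were thus higher in each H4 line than in either 42MGBA line. PCDHA4 had the opposite order, with 5.78 in H4, no listed pair with the hub center in H4 88-1, 8.72 in 42MGBA and 12.2 in 42MGBA 53-1. PCDHA3, its left neighbor, had 6.54, 4.62, 8.70 and 10.8. The lead of PCDHA4 in 42MGBA was thus small and held for the hub center only. The strongest alpha pair of 42MGBA joined PCDHA3 with the right anchor of the hub, at 9.18. Between these peaks, PCDHA8 ranged over the lines from 5.10 to 5.81 and PCDHA9 from 4.85 to 5.57. PCDHA11 also had the most listed pairs of any alpha gene in H4 (40) and H4 88-1 (23), and PCDHA4 in 42MGBA (20) and 42MGBA 53-1 (23).

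Among beta genes, whose pairs with the DIAPH1 hub span the gamma cluster, PCDHB12 led in 3 of the 4 lines. It lies 351 kb from the hub center, and the value was 14.1 in H4 and 8.38 in H4 88-1, and 11.7 in 42MGBA and 9.41 in 42MGBA 53-1. In H4 88-1 the highest beta gene was PCDHB13 at 8.81, followed by PCDHB16 at 8.59, so that no single beta gene start stood out there. The strongest beta pair of H4 88-1 had 9.50 and joined the hub center with the anchor chr5:140597627-140602564. That anchor overlaps an exon of PCDHB13 and holds no protein-coding start. PCDHB16 had 9.58 in H4, 11.0 in 42MGBA and 6.90 in 42MGBA 53-1. At the left end of the cluster the values of the systems did not overlap. PCDHB2 had 5.50 and 4.70 in H4 and H4 88-1 but 7.71 and 7.50 in 42MGBA and 42MGBA 53-1. The pair of PCDHB3 with the hub center was not listed in the H4 lines and had 7.27 and 7.13 in the 42MGBA lines. PCDHB12 had 32 listed pairs in H4, the most of any beta gene there, whereas PCDHB1 had the most in 42MGBA (20), PCDHB1 and PCDHB14 were tied in H4 88-1 (12) and PCDHB2 had 15 in 42MGBA 53-1.

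Among gamma genes the peak lay at different genes in H4, in H4 88-1 and in the 42MGBA lines. PCDHGB2 had the highest strength in both 42MGBA lines, with 16.3 in 42MGBA and 16.6 in 42MGBA 53-1, and only 5.78 in H4 and 6.05 in H4 88-1. PCDHGA4, next to it on the left, had 15.6 and 16.5 in the 42MGBA lines and 7.31 and 6.49 in the H4 lines. These were also the strongest pairs of the whole region in the 42MGBA lines, ranking at 1367 of the 300000 in 42MGBA and 703 in 42MGBA 53-1 for PCDHGB2. In H4 the peak was PCDHGA2, with 12.1 in H4 and 6.10 in H4 88-1, and 8.58 in 42MGBA and 10.2 in 42MGBA 53-1. In H4 88-1 it was PCDHGA10, with 6.78 in H4 and 10.9 in H4 88-1, and 7.43 in 42MGBA and 4.80 in 42MGBA 53-1. The peak of the gamma cluster thus lay at the left in H4, further in at PCDHGA4 and PCDHGB2 in the 42MGBA lines, and near the right end of the linked genes in H4 88-1.

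**Figure D3:**
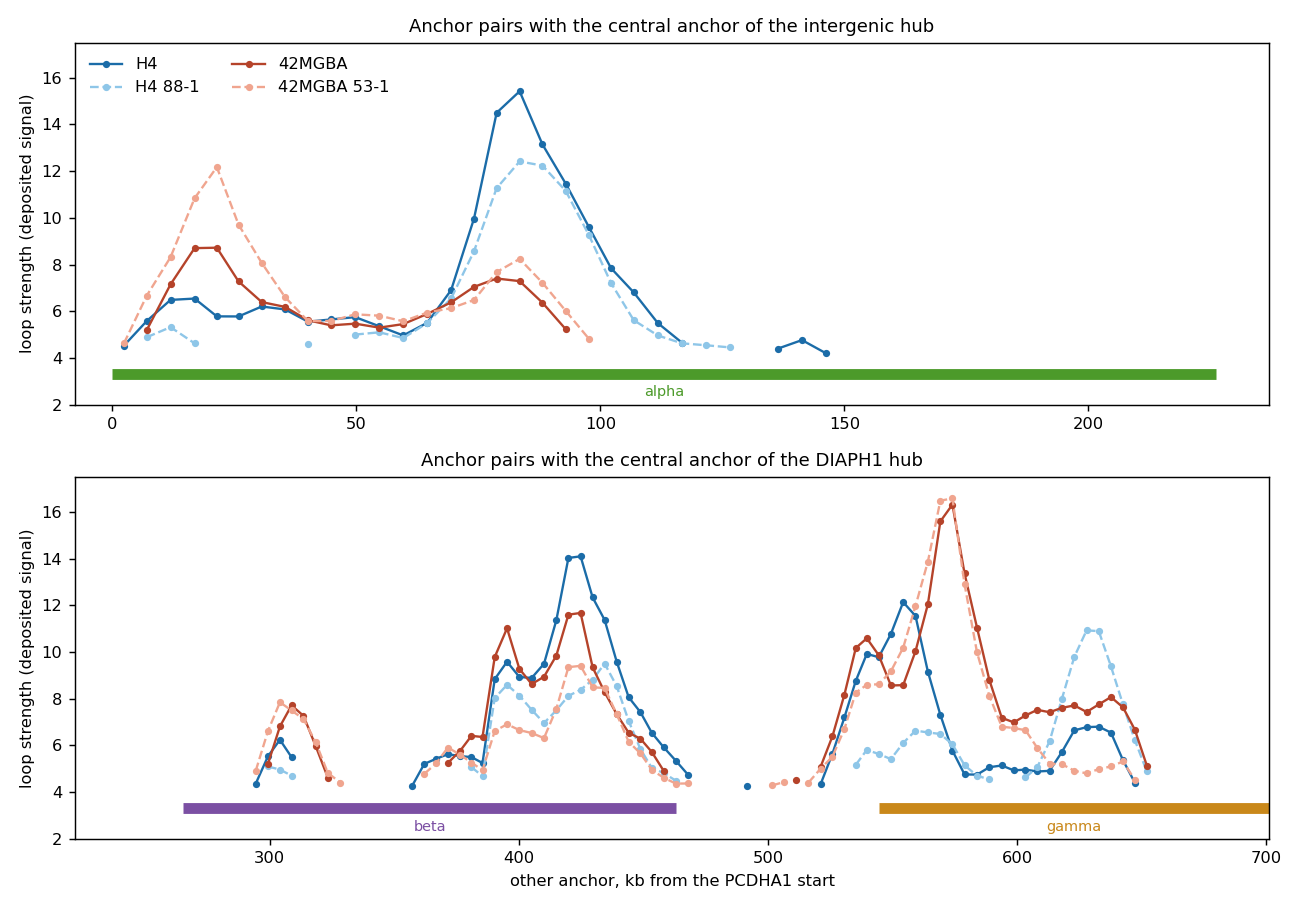
Loop strength of every anchor paired with the center of the intergenic hub (top) and of the DIAPH1 hub (bottom), by the distance of the other anchor from the PCDHA1 start in kb. Each line is 1 pooled list, broken where no pair is listed, with the derivatives dashed and the clusters drawn as bars. The top panel has peaks at PCDHA4 (12.2 in 42MGBA 53-1) and PCDHA11 (15.4 in H4), and the bottom panel at PCDHB12 (14.1 in H4), PCDHGB2 (16.6 in 42MGBA 53-1) and PCDHGA10 (10.9 in H4 88-1).

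A weaker row of pairs ended nearer to the gamma genes, at the anchor chr5:140908127-140913027 in the 3′ part of DIAPH1. Its strongest partner held the start of a gene that led or nearly led the gamma genes at the DIAPH1 hub. This was PCDHGA2 in H4 (5.76), PCDHGB7 and PCDHGA11 in H4 88-1 (6.93), and PCDHGB2 in 42MGBA (8.23) and 42MGBA 53-1 (8.18). In H4 88-1 the neighboring anchor chr5:140903388-140908126 had a higher value with the same partner (7.38).

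To compare lines, the 100000 strongest anchor pairs of both were merged, the strength in one line was regressed on that in the other through the origin, and a pair was called when the z-score of its residual passed the two-sided 0.05 cutoff. The cutoff ranks pairs and is no test. The comparison of H4 88-1 with H4 asks how the loops differed after correction of STAG2. It held 155 protocadherin pairs, of which 28 were called stronger in H4 (18.1%), beside 2.17% of all merged pairs, and 5 stronger in H4 88-1 (3.23%), beside 1.94%. The strength was higher in H4 88-1 for 25.8% of the 155 pairs (95% Wilson interval 19.6 to 33.2, which treats pairs as independent), beside 58.1% of all merged pairs and 60.8% of the other pairs of chromosome 5. The median log2 ratio of H4 88-1 to H4 was -0.25 for protocadherin pairs, 0.07 for all merged pairs and 0.10 for the rest of the chromosome. The called pairs form few groups, since joining pairs within 10 kb of each other left 3 patches stronger in H4 and 1 stronger in H4 88-1.

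The pairs called stronger in H4 lay in every cluster. They were 10 of the 52 beta pairs and 10 of the 47 gamma pairs with DIAPH1, 4 of the 10 alpha-beta pairs, 2 of the 38 pairs of alpha with the stretch between clusters, and 2 of the 8 pairs of the stretch between beta and gamma with DIAPH1. The largest z-score was -3.89, for the start of PCDHGA2 with the center of the DIAPH1 hub, where H4 had 12.1 and H4 88-1 6.10, a 1.99-fold difference. PCDHB12 had the most called pairs of the 53 genes (7), and its pair with the hub center was 1.68-fold stronger in H4. PCDHA11, PCDHGA2 and PCDHGA3 had 6 each, and at PCDHA11 the strength was 1.24-fold higher in H4. All 5 pairs called stronger in H4 88-1 joined the starts of PCDHGA10, PCDHGB7 and PCDHGA11 with the DIAPH1 hub, and the largest z-score, 2.34, was that of PCDHGA10 with the right anchor of the hub, at 5.12 in H4 and 9.41 in H4 88-1.

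Gene by gene, the start-to-hub strength was lower in H4 88-1 for all 10 alpha genes and all 11 beta genes listed in both lines, with median log2 ratios of -0.15 and -0.22. The gamma genes were split by position, 9 higher and 9 lower. The 6 genes from PCDHGA1 to PCDHGB2 had a median of -0.64, with 5 lower in H4 88-1, and the 7 from PCDHGB5 to PCDHGA12 had a median of 0.56, with all 7 higher. These groups of gamma genes were chosen after their values were seen, and neighbors within a group may not be independent. The genes between them, from PCDHGA5 to PCDHGA8, are in neither group. PCDHGB7 and PCDHGA11 share a start anchor and so hold the same value, which is counted for each gene, as do PCDHGB4 and PCDHGA8. After subtracting the median of all merged pairs (0.07), of chromosome 5 (0.09) or of pairs of similar size, all 10 alpha and all 11 beta genes were still lower in H4 88-1, as were 10 or 11 of the 18 gamma genes. Another 5 genes were listed at the hub only in H4, and none only in H4 88-1.

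**Figure D4:**
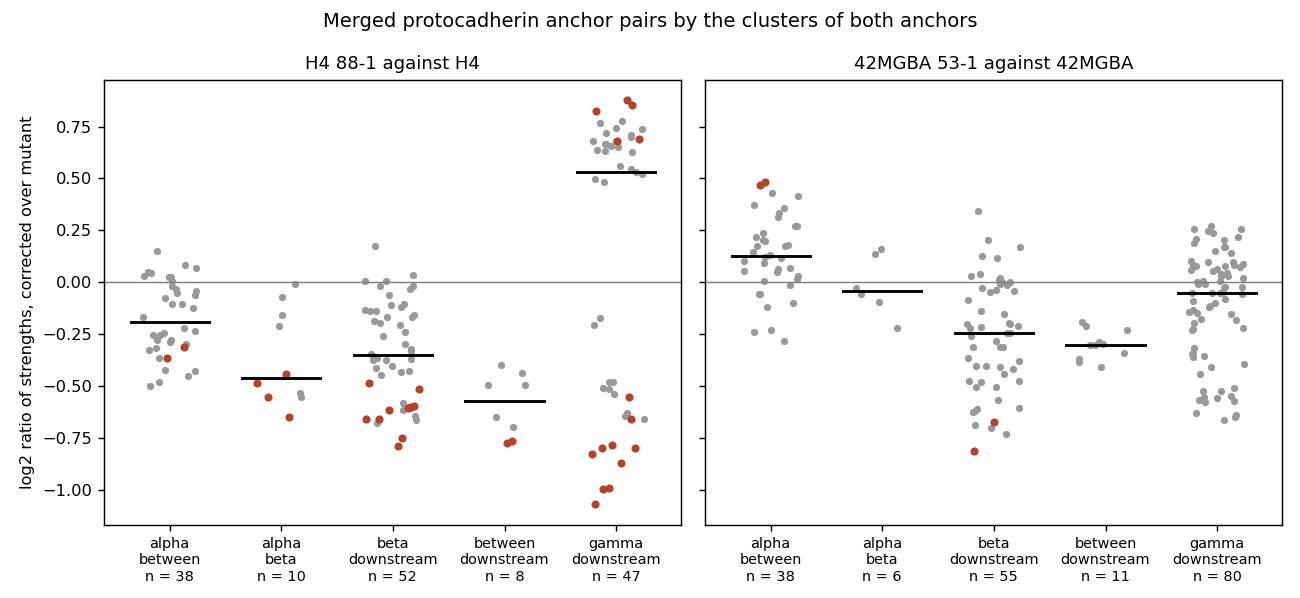
Log2 ratio of the loop strength in the STAG2-corrected line to that in its STAG2-mutant parent (y axis) for merged protocadherin anchor pairs, grouped by where their 2 anchors lie (x axis; between, the stretches between clusters; downstream, DIAPH1). Points are anchor pairs, red points passed the cutoff, and bars are medians. In the H4 pair the gamma pairs fall into a group above and a group below 0, with 27 of 47 above, and in the 42MGBA pair the alpha pairs with the stretch between clusters had a median of 0.13 and the beta pairs one of -0.25.

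The comparison of 42MGBA 53-1 with 42MGBA asks the same question in the second system. It held 190 protocadherin pairs, of which 2 (1.05%) were called stronger in 42MGBA 53-1, beside 1.61% of all merged pairs, and 2 (1.05%) stronger in 42MGBA, beside 2.45%. Both called pairs of the first kind joined PCDHA4 with the intergenic hub, with a largest z-score of 2.62 for 8.72 in 42MGBA and 12.2 in 42MGBA 53-1, and both of the second joined the anchor at the start of PCDHB16, also near PCDHB8, with the DIAPH1 hub, with a largest z-score of -2.44 for 11.2 in 42MGBA and 6.39 in 42MGBA 53-1. The strength was higher in 42MGBA 53-1 for 39.5% of the pairs (Wilson interval 32.8 to 46.6), beside 38.7% of all merged pairs and 47.0% of the other pairs of chromosome 5, and for 49.5% relative to pairs of similar size. The calls for PCDHA4 depend on the scale, since no pair was called stronger in 42MGBA 53-1 on the log2 scale and 9 pairs were called stronger in 42MGBA 53-1 when the regression had an intercept.

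Within the region the clusters differed in direction. The start-to-hub strength was higher in 42MGBA 53-1 for 9 of 11 alpha genes listed in both lines (median log2 ratio 0.13) and lower for all 12 beta genes (-0.34). Of 19 gamma genes 5 were higher and 14 lower. Most merged pairs of the genome were lower in 42MGBA 53-1, with a median log2 ratio of -0.11 over all merged pairs. Relative to that median all 11 alpha genes were higher, while the beta genes were split, 8 lower and 4 (PCDHB2, PCDHB3, PCDHB14 and PCDHB15) higher, with a median of -0.23. Relative to pairs of similar size 7 beta genes were lower and 5 higher, and relative to chromosome 5 11 were lower and 1 higher. These levels were chosen after seeing the data. The same groups of gamma genes that were set apart in the H4 pair had medians of 0.14 (PCDHGA1 to PCDHGB2, 5 of 6 higher) and -0.63 (PCDHGB5 to PCDHGA12, 7 of 7 lower). Each was of the opposite sign to the H4 pair, and both signs held under all 3 levels. Since the groups were chosen after the values had been seen, the opposite signs are a description and were not tested. Between the groups, PCDHGB3, PCDHGA6, PCDHGB4 and PCDHGA8 were lower in both corrected lines before subtracting any level. PCDHGA5 was higher in H4 88-1 and lower in 42MGBA 53-1.

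The 2 STAG2 pairs share no line and can be set side by side. Of 98 protocadherin pairs merged in both, 2 (2.04%) were stronger in both corrected lines, beside 21.4% of the 68322 pairs of the genome merged in both, 50 (51.0%) were weaker in both, beside 28.0%, and 46 (46.9%) differed in opposite directions, beside 50.6%. Relative to the median of all merged pairs of each comparison, 0 were stronger in both (25.8% over the genome), 41 were weaker in both (41.8%, beside 28.7%) and 57 differed in opposite directions (58.2%, beside 45.5%). Calls in the same direction in both numbered 0 of the 98 protocadherin pairs and 0.369% over the genome, a share too low for this number of pairs to be read against it. Of 27 pairs called in the H4 pair and merged in both, 14 (51.9%) had the opposite sign in the 42MGBA pair, beside 41.2% of such pairs over the genome, among them PCDHGA2 with the center of the DIAPH1 hub and PCDHGA10 with the same anchor. Of 2 pairs called in the 42MGBA pair and merged in both, 0 had the opposite sign in the H4 pair, beside 48.2% over the genome. So few pairs cannot be read against that share. In the beta cluster every gene listed in both lines of a system was lower in the corrected line, 11 of 11 and 12 of 12 before subtracting any level, but 8 of 12 in the 42MGBA system relative to the median of all merged pairs. The difference between the systems was not tested.

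The 2 comparisons between systems use the same lines again, so that they are not independent of those above. Between the STAG2-mutant lines, 210 protocadherin pairs were merged, of which 12 (5.71%) were called stronger in 42MGBA, beside 2.11% of all merged pairs, and 11 (5.24%) stronger in H4, beside 1.93%. All 12 were gamma pairs with DIAPH1, in 1 patch, and the largest z-score, 3.74, was that of PCDHGB2 with the right anchor of the DIAPH1 hub, with 4.37 in H4 and 15.0 in 42MGBA. PCDHGB2 was at 11 of them, PCDHGA4 at 8 and PCDHGA5 at 7, counting starts within 3 kb. All 11 on the other side were alpha pairs in 1 patch, 10 with the stretch between clusters and 1 with the PCDHB1 anchor, led by PCDHA11 with the intergenic hub (z-score -3.11, 15.4 in H4 and 7.29 in 42MGBA). PCDHA11 was at 8 of them, PCDHA12 at 4 and PCDHA13 at 3. With an intercept in the regression 0 pairs were called stronger in H4 and 11 stronger in 42MGBA. The strength was higher in 42MGBA for 56.7% of the 210 pairs (Wilson interval 49.9 to 63.2), beside 54.4% of all merged pairs, but for 31.7% of those with both anchors inside the region, all of which are alpha pairs.

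Between the STAG2-corrected lines, 201 pairs were merged, of which 24 (11.9%) were called stronger in 42MGBA 53-1, beside 1.92% of all merged pairs, and 2 (0.995%) stronger in H4 88-1, beside 2.09%. The 24 comprised 18 gamma pairs and 6 alpha pairs, in 2 patches. The gamma patch was led by PCDHGB2 with the center of the DIAPH1 hub (z-score 4.38, 6.05 in H4 88-1 and 16.6 in 42MGBA 53-1), with 13 called pairs each at PCDHGB2 and PCDHGA4 and 9 at PCDHGB1, and the alpha patch by PCDHA4 with the intergenic hub (z-score 3.17). Since the PCDHA4 pair was not listed in H4 88-1, its 2.74-fold difference is a lower bound. The 2 pairs on the other side joined PCDHGA10, PCDHGB7 and PCDHGA11 with the DIAPH1 hub, and PCDHGA10 had 10.9 in H4 88-1 and 4.80 in 42MGBA 53-1. PCDHGB2 thus had the most called pairs between the mutant lines and, tied with PCDHGA4, between the corrected lines. The strength was higher in 42MGBA 53-1 for 60.7% of the 201 pairs (Wilson interval 53.8 to 67.2), beside 46.2% of all merged pairs, and for 48.1% of the pairs listed in both lines.

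Other protein-coding genes also start inside the region. Among them, TAF7 (a subunit of the general transcription factor TFIID) and SLC25A2 (a mitochondrial carrier) lie between beta and gamma on the minus strand. The annotation also places protein-coding starts of AC005609.1 in the alpha cluster and of ENSG00000279983 in the beta cluster. The anchor chr5:140702980-140707676, within 3 kb of the starts of TAF7 and PCDHGA1, was joined to the center of the DIAPH1 hub at 9.92 in H4, 10.6 in 42MGBA and 8.59 in 42MGBA 53-1, and its strongest pair in H4 88-1, with the right anchor of the hub, had 5.85. Its pair with the hub center was called stronger in H4 than in H4 88-1 (z-score -2.72).

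Outside the clusters, 12 non-clustered protocadherin genes and 15 genes of cohesin, CTCF and silencing factors were counted by the same rule. Of the former, PCDH1 and PCDH12 had merged pairs at their starts, 43 for the H4 lines and 39 for the 42MGBA lines, and 0 were called, beside 4.11% and 4.06% of all merged pairs in either direction. Of the latter, SMC3, STAG1 and PDS5A had 53 merged pairs for the H4 lines, these and CTCF had 33 for the 42MGBA lines, and again 0 were called. These shares are too low for 0 calls among so few pairs to be read as a difference. The other genes of both lists, STAG2 among them, had no merged pair at a start.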

How the data were processed

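Hi-C libraries (Arima kit) were made from 2 replicates of each of 4 cell lines. The authors trimmed the reads to 36 bp, aligned them to hg19 with bowtie, kept unique pairs without duplicates, counted them between 5 kb anchors, and passed the maps through HiCorr (bias correction) and LoopEnhance of DeepLoop (a network trained to denoise sparse maps, which can shape neighboring values). The deposited signal is the loop strength of the 300000 strongest anchor pairs per line, replicates pooled, without read counts, so that depth and precision are unknown. The 12 RNA-seq samples were not analysed here.

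Members were anchor pairs overlapping the region at either anchor, and classes and genes came from GENCODE release 44 lifted to hg19. The study's methods gave 2 of the steps, merging the 100000 strongest pairs of each line and calling pairs by z-score at a 0.05 cutoff on both sides. The study also reports comparing loops by a regression. Whether it had an intercept, how the z-score was formed from it and what value an unlisted pair took are not given in the sources used here. The z-score of the residual from a regression through the origin was used, with an unlisted pair set to the lowest strength of its list, so that the calls need not be those of the study. Sequences came from the GRCh37 genome.

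The members, the gene lists and the tests were chosen with earlier results of these data known. The rule for named genes took the strongest pair of each class and line, the largest z-scores, the 3 genes with the most called pairs per comparison and direction, the genes with the most and fewest listed pairs per cluster, the C-type genes, PCDHB1 and other genes inside the region. Other genes were named after their values were seen. Alternatives changed the regression, scale, number merged, treatment of unlisted pairs, size and chromosome trends, member rule and distance to a start. Scripts ran in Python 3.11.15 (pandas 2.3.3, numpy 2.4.6, matplotlib 3.10.9 and scipy 1.17.1).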

Additional observations from a re-analysis of the deposited data

Results flagged for a closer look

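Of the 14 anchor pairs that were called in the H4 pair and went the opposite way in the 42MGBA pair, the one with the largest z-score of each class is given. The anchor chr5:140242090-140246829, left of PCDHA11, with the center of the intergenic hub had z-scores of -2.26 (H4 pair) and 0.536 (42MGBA pair). The start of PCDHGA2 (anchor chr5:140717452-140722386) with the center of the DIAPH1 hub had z-scores of -3.89 (H4 pair) and 1.45 (42MGBA pair). With 1 pooled list per line the difference between the systems was not tested.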

How the results depend on the processing

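No paired analysis was possible because the replicates of each line are pooled in 1 list, and for the same reason no replicate could be left out. Of 88 alternative values for 16 results, 49 stayed close to the value given, that is, counts within 1.5 times and percentages inside the Wilson interval. In H4 88-1 against H4 the count called stronger in H4 was 19 to 47 under the alternatives that kept every member, and 6 when both anchors had to lie inside the region.

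Merging the 200000 strongest pairs gave 8 called stronger in H4 88-1 and 47 in H4, 7 each in 42MGBA 53-1 and 42MGBA, 18 stronger in H4 than in 42MGBA, and 12 stronger in H4 88-1 than in 42MGBA 53-1. With an intercept, 9 pairs were stronger in 42MGBA 53-1 and 1 in 42MGBA, and 0 stronger in H4 than in 42MGBA or in H4 88-1 than in 42MGBA 53-1. On the log2 scale these 4 counts were 0, 1, 6 and 0. Among pairs of similar size, 2 were stronger in H4 88-1 than in H4, 0 in 42MGBA 53-1 than in 42MGBA, 22 in H4 than in 42MGBA and 10 in H4 88-1 than in 42MGBA 53-1. After subtracting the median of chromosome 5 on the log2 scale, 0 were stronger in 42MGBA 53-1 than in 42MGBA, and between the corrected lines 13 were stronger in 42MGBA 53-1 and 5 in H4 88-1. With pairs listed in both lines only, 7 were stronger in 42MGBA than in H4 and 14 in 42MGBA 53-1 than in H4 88-1. With both anchors inside the region, 0 were stronger in H4 88-1 and 6 in H4, 0 in 42MGBA than in 42MGBA 53-1, 0 in 42MGBA than in H4, and 6 in 42MGBA 53-1 and 0 in H4 88-1; this rule drops every pair with DIAPH1.

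The share higher in H4 88-1 than in H4 was 18.7% after subtracting the median of chromosome 5, 18.8% with both anchors inside the region and 18.1% against pairs of similar size. The share higher in 42MGBA 53-1 than in 42MGBA was 49.5% against pairs of similar size and turned to 72.7% with both anchors inside. The share higher in 42MGBA than in H4 turned to 31.7% with both anchors inside. The share higher in 42MGBA 53-1 than in H4 88-1 turned to 48.1% with pairs listed in both lines and to 49.1% with both anchors inside. Among the 100000 strongest pairs of a list, 30 genes had a pair at a start in H4 and 24 in H4 88-1. Apart from the settings whose construction drops pairs, the cause of these changes was not tested. Alternatives chosen after seeing the data centered the start-to-hub ratios of each cluster on 3 other levels. They turned no cluster's majority in either comparison of a corrected line with its parent, but 4, 1 and 5 of the 12 beta genes became higher in 42MGBA 53-1 relative to all merged pairs, chromosome 5 and pairs of similar size. Depth limits every value, since the lists hold no read counts.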
